A study of Mus musculus with 12 samples.

Results

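Notch signalling is a contact-dependent pathway in which a ligand of the Delta or Jagged families on 1 cell binds a Notch receptor on its neighbour. The receptor is then cleaved, and its intracellular domain joins the DNA-binding protein RBPJ and Mastermind proteins to switch on targets such as the Hey repressors. In the heart the pathway is best known for its roles in endocardium, in trabeculae and coronary vessels, and in the mural cells of arteries.

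The 10 genes described here were 4 receptors (Notch1, Notch2, Notch3 and Notch4), 3 ligands (Dll1, Dll4 and Jag1), the Deltex protein Dtx1 and the targets Hey1 and Hey2, out of 34844 gene names on the array. They were taken as every probe whose gene name equalled 1 of these symbols, which gave 13 probes of 55681. Of these, 10 probes, 1 for each gene, were well above background on at least 3 of 4 arrays of a group and were tested with 24583 other probes. The remaining 3, a further probe each for Notch1, Notch2 and Dll1, did not pass and are described without a test.

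RNA came from the left ventricle of 6-month-old mice, taken as the ventricular wall with the apex and without the septum, with 4 arrays in each of 3 groups. Nkx2-5ΔTrbE10 mice (Nkx2-5Δtrab in the labels) carried floxed Nkx2-5 alleles and the tamoxifen-inducible Cx40-creERT2, with tamoxifen given to the mother at E10.5 and E11.5, when trabeculae form. Nkx2-5ΔTrbE14 mice (Nkx2-5Δcomp in the labels) had the same alleles and received it at E13.5 and E14.5, when trabeculae compact. Controls carried the floxed alleles without Cre (Nkx2-5-ΔNeo fl/fl:Cx40+/+), so all 3 groups shared the floxed alleles. Both mutants therefore also differed from control by the creERT2 allele of Cx40 (gene Gja5), which cannot be told apart from the deletion. The labels give the controls no injection, while the methods call them littermates. Cx40 is expressed in trabecular and atrial muscle and also in arterial endothelium, so the deletion in a sample covers some of its cells. Nothing in the labels tied a replicate number to a litter, and p-values measure the spread between these samples.

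Every array held signal for all 7 cardiomyocyte markers, whose mean log2 signal lay between 15.5 and 15.7. The targeted gene Nkx2-5 read between 11.89 and 12.23 on the control arrays, between 11.21 and 11.67 in ΔTrbE10 hearts and between 11.12 and 11.63 in ΔTrbE14 hearts, so neither mutant group overlapped the controls. Its log2 change was -0.66 (limma adjusted p = 0.0459) and -0.59 (adjusted p = 0.106). For Gja5 the brighter tested probe had log2 changes of -0.64 and -0.47 (limma adjusted p = 0.410 and 0.572). Its dimmer tested probe had changes of -0.60 and -0.54 (0.359 and 0.455), so neither probe passed. All control and ΔTrbE14 arrays lay on slide 1 and all ΔTrbE10 arrays on slide 2, so slide and the ΔTrbE10 group cannot be told apart, whereas ΔTrbE14 and control share a slide. At least 2 of 5 probes for Y-linked genes were well above background on 1 of 4 control, 2 of 4 ΔTrbE10 and 3 of 4 ΔTrbE14 arrays, and 1 further control array had 1 of the 5.

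Probes of Hey1, Dtx1 and Notch3 and both probes of Notch1 and Dll1 are printed by their first 30 of 60 bases, 5′ to 3′. Coordinates are those of the scanner files (mm9), and no base is singled out by capitals.
Hey1 probe (A_51_P258409, chr3:8663432-8663491, minus strand): gatttgggctctaaaagtattgttttacag
Dtx1 probe (A_51_P202050, chr5:121130278-121130337, minus strand): tgaggattggctgctgggatggaagtcagc
Notch3 probe (A_51_P220162, chr17:32257848-32257907, minus strand): gcctaatagaaatgtttttaggctgttttt
Notch1 probe that passed (A_55_P2171897, chr2:26319440-26319499, minus strand): tcctgcagtggagggggccttgagacaggc
Notch1 probe that did not pass (A_55_P2047168, chr2:26314630-26314689, minus strand): ttgcttctttccaaaatcgaaaagaaagaa
Dll1 probe that passed (A_51_P306017, chr17:15504623-15504682, minus strand): gattactatgagccagtctttccttgaact
Dll1 probe that did not pass (A_55_P1986900, chr17:15513726-15513785, minus strand): acactatccggaccccaattccccatttcc

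Both Notch1 probes carry the same RefSeq accession in the files, yet the one with 55% GC was well above background on 12 of 12 arrays and the one with 40% GC on 0 of 12. The dim Dll1 probe is assigned to a separate Ensembl transcript. The RefSeq promoter table (GRCm38.p6) held 9 of the 10 genes, in 10 windows from 250 bases before to 50 bases after a gene's start. Hey1 was not in it. The core of the RBPJ motif, TGGGAA on either strand, occurred in the window of Hey2 and of no other gene, beside 25.6% of all 32851 windows of this length. In Hey2 it lay at positions -207 and -3 from the start, and the second match runs over the start. The 250 bases before the Hey2 start are shown because they hold the only complete upstream match among the 9 genes, and the capitals mark it.
Hey2 promoter (GRCm38.p6, chr10:30842784-30843033, minus strand): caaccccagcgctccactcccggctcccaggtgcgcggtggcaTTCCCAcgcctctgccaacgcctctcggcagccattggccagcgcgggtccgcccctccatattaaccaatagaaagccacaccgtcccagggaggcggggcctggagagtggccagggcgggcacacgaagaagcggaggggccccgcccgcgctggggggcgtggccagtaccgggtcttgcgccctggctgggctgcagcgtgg
A match describes letters in this window and is not a measured binding site.

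Of all probes tested, 416 passed the adjusted p of 0.05 in ΔTrbE10 against control, a share of 1.69%, and 148 passed in ΔTrbE14 against control, a share of 0.602%. Of the 10 Notch probes, 2 passed in ΔTrbE10 hearts (Hey1 higher, Dtx1 lower) and 1 in ΔTrbE14 hearts (Hey1). Both comparisons use the same 4 control arrays. The mutant and control arrays did not overlap for 5 of the 10 probes in ΔTrbE10 (Notch1, Notch3, Dll1, Dtx1 and Hey1), beside 10.1% of all probes, and for 3 in ΔTrbE14 (Notch3, Dll1 and Hey1), beside 9.43%. With 4 arrays against 4, groups that do not overlap give the smallest p that the exact two-sided permutation test allows, 0.0286. At an unadjusted limma p under 0.05 there were 5 and 4 of the 10, beside 16.4% and 13.6% of all probes. The median log2 change of the 10 probes was 0.060 in ΔTrbE10 and 0.024 in ΔTrbE14, with 5 higher and 5 lower in each, beside medians of -0.025 and -0.032 over all probes. From these arrays and qPCR, the paper names Notch3, Dll1, Dtx1 and Hey1 among its deregulated genes. The 10 genes were chosen with earlier results of these data known, so their counts beside the shares of all probes are no test of the group.

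**Figure D1:**
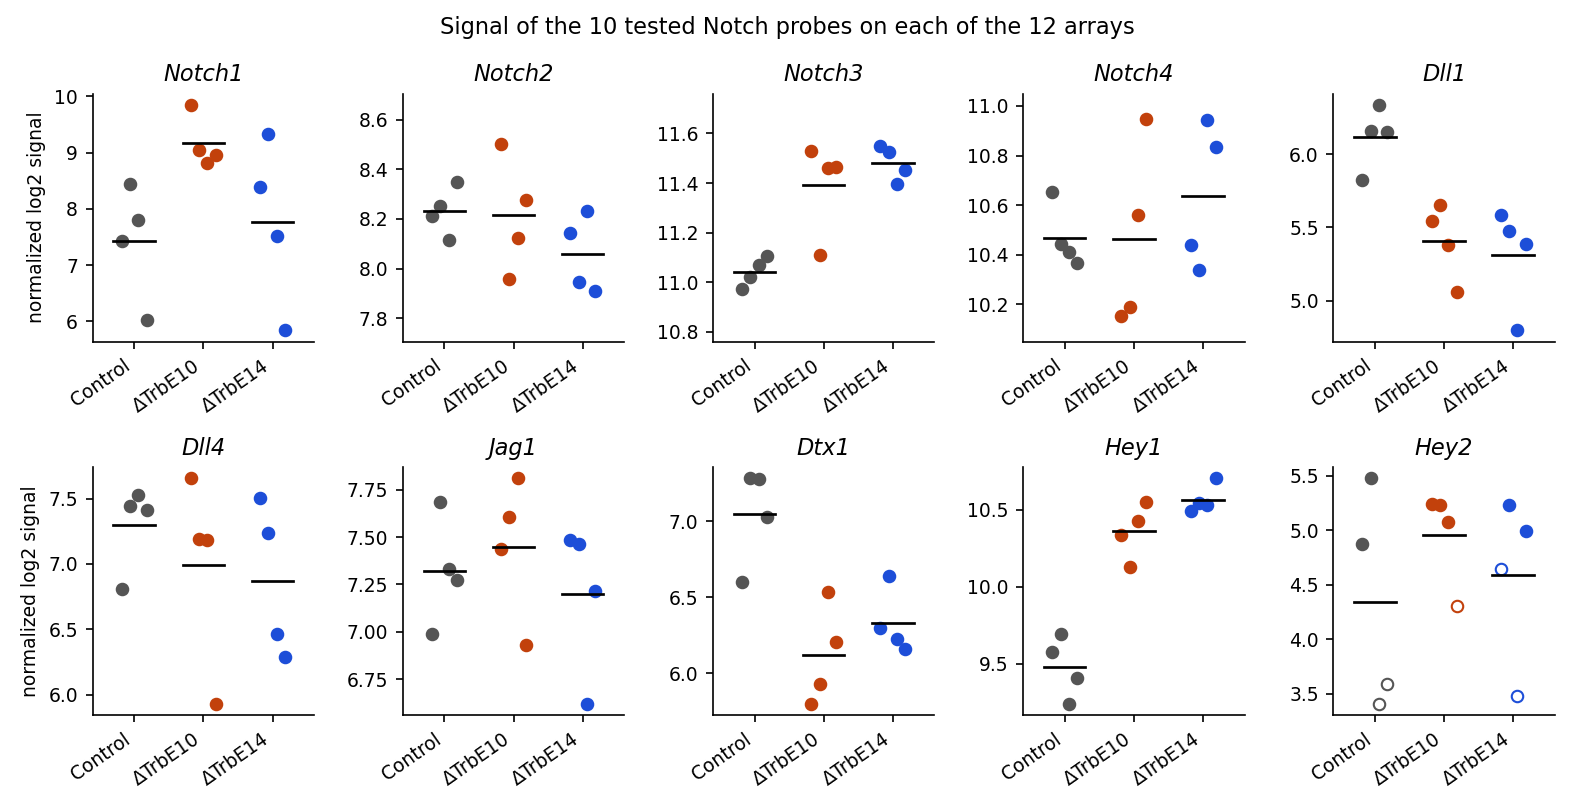
Normalized log2 signal (y axis, a separate scale for each gene) of the 10 probes that passed the filter, with 1 point per array, 4 arrays per group and a line at the group mean; open points were not well above background. The Hey1 points of both mutants lie at 10.13 or above and those of the controls at 9.69 or below, while Dll1 and Dtx1 lie lower in both mutants.

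Hey1, a transcriptional repressor switched on by active Notch receptors, was the only one of the 10 called in both mutants. Its log2 signal on the control arrays was 9.57, 9.69, 9.24 and 9.40. In ΔTrbE10 hearts it was 10.33, 10.13, 10.43 and 10.55, and in ΔTrbE14 hearts 10.49, 10.54, 10.53 and 10.70. All 8 mutant arrays stood above all 4 control arrays, by at least 0.44 between the nearest points. The group means were 9.48 ± 0.20 (SD, n = 4) in control, 10.36 ± 0.18 in ΔTrbE10 and 10.56 ± 0.10 in ΔTrbE14. Hey1 rose by 0.88 on the log2 scale in ΔTrbE10 (SE 0.12, 95% interval 0.62 to 1.14, limma adjusted p = 0.00398), a ratio of 1.84. It rose by 1.09 in ΔTrbE14 (SE 0.12, interval 0.83 to 1.35, limma adjusted p = 0.00161), a ratio of 2.12, among arrays that share a slide with the controls. In all 21 alternative settings the change remained past the threshold, ranging from 0.80 to 0.96 in ΔTrbE10 and from 1.00 to 1.16 in ΔTrbE14.

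In whole ventricular tissue, a change in the number of cells of a type and a change in RNA per cell cannot be told apart. Hey1 is known from arterial endothelium, and the list of arterial endothelial markers was higher on the same arrays: Gja4, Sox17, Bmx and Efnb2 were above control in 4 of 4 genes in each mutant. The list's mean log2 signal was 8.61 to 8.74 on control arrays, 8.96 to 9.76 in ΔTrbE10 and 9.11 to 9.55 in ΔTrbE14. Of the 4, Efnb2, the arterial ephrin, rose by 0.60 in ΔTrbE10 (limma adjusted p = 0.0213), and its log2 change in ΔTrbE14 was 0.39 (adjusted p = 0.165). The log2 change of the other 3 lay between 0.32 and 0.95 in ΔTrbE10 and between 0.27 and 0.90 in ΔTrbE14, and none was called. Dll1, Dll4 and Gja5, also known from arterial endothelium but not on the list, lay below control without passing. Their log2 changes were -0.71, -0.31 and -0.64 (brighter probe) in ΔTrbE10, and -0.81, -0.43 and -0.47 in ΔTrbE14. Gja5 holds the creERT2 allele in both mutants and not in controls, so its values cannot be read as those of an arterial marker here. The paper counted arteries by Cx40-RFP and SMA staining, a measure unlike RNA of whole tissue, and saw no significant difference in their density. It also reported more endocardial islets in ΔTrbE10 hearts, and raised Endoglin transcript in hypertrabeculated hearts. Of 10 general endothelial markers, 8 were above control in each mutant and 0 were called by limma, with list means of 10.78 to 10.90, 10.88 to 11.05 and 10.97 to 11.18 in control, ΔTrbE10 and ΔTrbE14. The part of these markers in the Hey1 change was not tested.

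Other marker lists also differed between the groups. Hey1 marks atrial muscle during development, and the atrial muscle markers had list means of 8.85 to 11.32 on control, 10.56 to 12.49 on ΔTrbE10 and 11.52 to 12.26 on ΔTrbE14 arrays. Of its 5 genes, 3 lay above control in ΔTrbE10 and 4 in ΔTrbE14. The log2 change of Sln (sarcolipin) was 3.80 (limma adjusted p = 0.0177) and 3.33 (adjusted p = 0.0511), and that of Nppa (atrial natriuretic peptide) 2.07 (0.0860) and 1.65 (0.240). Bmp10 was well above background on 0 of 4 control, 4 of 4 ΔTrbE10 and 4 of 4 ΔTrbE14 arrays. It entered the test through the mutant groups alone, so no fold or p-value is given. Its dim control values are part of the list means. The atrial light chains Myl7 (-0.12 and -0.00056) and Myl4 (-0.087 and 0.086) did not pass. Macrophage markers read 8.46 to 8.51, 9.01 to 9.33 and 8.81 to 8.90, so both mutants stood above control. Of the 8 genes, 8 lay above control in ΔTrbE10 and 7 in ΔTrbE14. These means include Fcgr1, well above background on 0 of 4 control, 4 of 4 ΔTrbE10 and 3 of 4 ΔTrbE14 arrays. They also include Cd163, with 2, 3 and 2 of 4. The 7 cardiomyocyte markers had median changes of -0.14 and -0.04, the 7 fibroblast markers of 0.41 and 0.42, and the 3 tested adipocyte markers of -1.35 and -0.41. Endocardial markers read 7.97 to 8.47 on control arrays, 8.51 to 8.89 in ΔTrbE10 and 8.43 to 8.68 in ΔTrbE14. The largest change among them was that of Npr3, 1.24 (limma adjusted p = 0.0247) and 1.00 (0.0967). Nfatc1 (-0.01 and -0.20) and Plvap (0.24 and 0.31) did not pass. The part of each list in the values of the Notch genes was not tested.

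**Figure D2:**
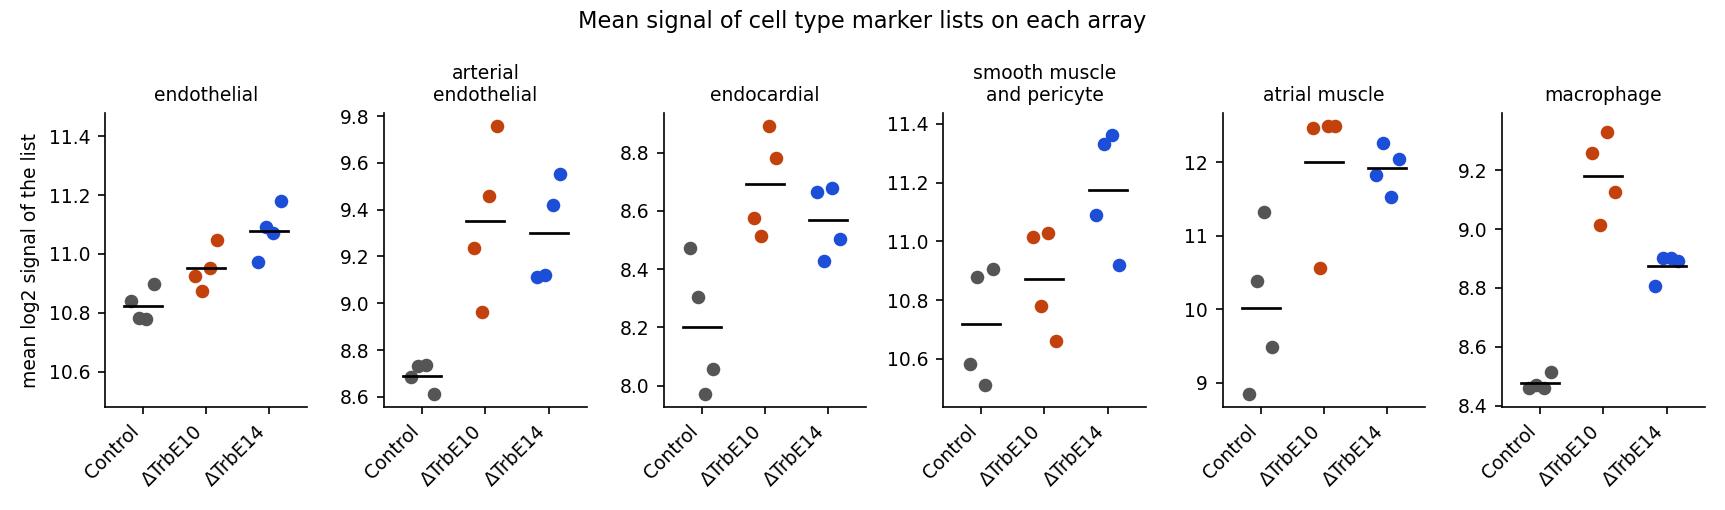
Mean log2 signal of 6 marker lists (y axis, a separate scale for each list) on each array, with 4 points per group and a line at the group mean. The arterial endothelial and macrophage lists lie above control on all 8 mutant arrays, and the smooth muscle and pericyte list overlaps control in ΔTrbE10.

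Hey2, the paralogue of Hey1 that marks compact ventricular muscle during development, was dim. Its probe was well above background on 2 of 4 control, 3 of 4 ΔTrbE10 and 2 of 4 ΔTrbE14 arrays, so it entered the test through the ΔTrbE10 group alone. The log2 signal was 4.87, 5.48, 3.41 and 3.59 in control, 5.24, 5.23, 5.07 and 4.30 in ΔTrbE10, and 4.64, 5.23, 3.48 and 4.99 in ΔTrbE14. The 3 groups overlapped throughout. The log2 change was 0.62 in ΔTrbE10 (interval -0.46 to 1.71) and 0.25 in ΔTrbE14 (interval -0.84 to 1.34), with limma adjusted p of 0.574 and 0.840. On the authors' deposited normalized values the sign turned, to -0.096 and -0.035, so the direction of Hey2 cannot be given.

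Dtx1, a Deltex ubiquitin ligase that binds the Notch intracellular domain and is itself a Notch target in lymphocytes, was lower in both mutants. Its log2 signal was 6.60, 7.28, 7.27 and 7.03 in control, 5.80, 5.93, 6.54 and 6.21 in ΔTrbE10, and 6.30, 6.64, 6.22 and 6.16 in ΔTrbE14. The ΔTrbE10 arrays lay below all controls, and 1 ΔTrbE14 array lay above the lowest control. Dtx1 fell by 0.93 on the log2 scale in ΔTrbE10 (SE 0.19, limma adjusted p = 0.0392), to 0.526 of the control level. In ΔTrbE14 its log2 change was -0.71 (SE 0.19, adjusted p = 0.151, exact permutation p = 0.0571), which did not pass. The ΔTrbE10 call was lost in 10 of 21 alternative settings, with adjusted p from 0.0210 to 0.106, among them no filter on dim probes (0.102), a fit on those 2 groups only (0.0863) and the fits without control replicate 2, 3 or 4 (0.0922, 0.106 and 0.0958). It was also lost without ΔTrbE10 replicate 1, 2 or 4 (0.0976, 0.0610 and 0.0787), and without ΔTrbE14 replicate 1 or 4 (0.0564 and 0.0532). SAM at a false discovery rate of 5% did not call Dtx1 in either mutant on the quantile-normalized values, whereas on the deposited normalized values it called Dtx1 in ΔTrbE10 and not in ΔTrbE14. After normexp background correction the changes shrank to -0.57 and -0.38.

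Lymphocytes are a known source of Dtx1. Of 5 T lymphocyte markers 3 were tested, with 3 above control in ΔTrbE10 and 1 in ΔTrbE14, and 0 were called by limma. Their mean log2 signal lay between 5.36 and 6.48 on control, 6.04 and 6.40 on ΔTrbE10 and 5.55 and 6.10 on ΔTrbE14 arrays. Of 5 B lymphocyte markers 3 were tested, with 2 above control in each mutant and 0 called. The part of these cells in the Dtx1 values was not tested.

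Notch3, the receptor of vascular smooth muscle cells and pericytes, was above control on every mutant array without passing the test. Its log2 signal was 10.97, 11.02, 11.07 and 11.11 in control, 11.53, 11.11, 11.46 and 11.47 in ΔTrbE10, and 11.55, 11.52, 11.39 and 11.45 in ΔTrbE14. Neither mutant overlapped control, though ΔTrbE10 replicate 2 (11.112) lay next to the highest control (11.105). The log2 change was 0.35 in ΔTrbE10 (SE 0.096, interval 0.14 to 0.56) and 0.44 in ΔTrbE14 (SE 0.096, interval 0.23 to 0.65). With limma adjusted p of 0.0984 and 0.0754, neither passed. Without ΔTrbE10 replicate 2 the changes were 0.44 and 0.44, and both then passed (adjusted p = 0.0135 and 0.0201). The ΔTrbE14 change also passed after normexp correction (adjusted p = 0.0290) and with Y-linked signal as a covariate (0.0468).

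Of the 8 markers of smooth muscle cells and pericytes, 5 were above control in ΔTrbE10 and 7 in ΔTrbE14, with median log2 changes of 0.02 and 0.52. Pdgfrb, a pericyte receptor, rose by 0.37 in ΔTrbE10 (limma adjusted p = 0.0444) and its change was 0.41 in ΔTrbE14 (adjusted p = 0.0511). The contractile genes Myh11, Tagln and Cnn1 had log2 changes between -0.06 and 0.02 in ΔTrbE10 and between 0.63 and 0.83 in ΔTrbE14, and none was called. The list means were 10.51 to 10.91 in control, 10.66 to 11.03 in ΔTrbE10 and 10.92 to 11.36 in ΔTrbE14. The part of these cells in the Notch3 values was not tested.

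Notch1, the main receptor of endocardium and endothelium, had the largest standard error of the 10. Through the probe that passed, its log2 signal was 7.43, 8.45, 7.80 and 6.02 in control, 9.85, 9.04, 8.82 and 8.97 in ΔTrbE10, and 8.39, 9.33, 7.52 and 5.84 in ΔTrbE14. The ΔTrbE10 arrays stood above all controls, and the ΔTrbE14 arrays spanned the control range on both sides. The difference was 1.75 in ΔTrbE10 (SE 0.68, interval 0.24 to 3.25, limma adjusted p = 0.240) and 0.35 in ΔTrbE14 (interval -1.15 to 1.85, adjusted p = 0.839), so neither passed. Within groups the SD was 1.02 in control, 0.46 in ΔTrbE10 and 1.48 in ΔTrbE14. The second Notch1 probe read between 2.40 and 4.45 on all 12 arrays and was nowhere well above background, so the larger ΔTrbE10 signal rests on 1 probe. All ΔTrbE10 arrays share a slide that no control shares.

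Notch2, expressed in many stromal and vascular cells, and Notch4, a receptor of endothelial cells, gave no difference that passed. For Notch2 the log2 signal was 8.11 to 8.35 in control, 7.96 to 8.50 in ΔTrbE10 and 7.91 to 8.23 in ΔTrbE14. Its change was -0.02 (interval -0.29 to 0.25) and -0.17 (interval -0.44 to 0.10), with limma adjusted p of 0.965 and 0.543. The second Notch2 probe was well above background on 2 of 12 arrays. For Notch4 the signal was 10.37 to 10.65, 10.15 to 10.95 and 10.34 to 10.94 in the same order of groups. Its change was -0.01 (interval -0.42 to 0.41) in ΔTrbE10 and 0.17 (interval -0.25 to 0.58) in ΔTrbE14, with adjusted p of 0.990 and 0.703.

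Among the ligands, Dll1, a Delta ligand known from arterial endothelium and from niches of immune cells, was lower in both mutants without passing the test. Its log2 signal was 5.82, 6.16, 6.34 and 6.15 in control, 5.55, 5.66, 5.38 and 5.06 in ΔTrbE10, and 5.59, 5.48, 4.80 and 5.38 in ΔTrbE14. None of the 8 mutant arrays reached the lowest control. The log2 change was -0.71 in ΔTrbE10 (SE 0.19, interval -1.12 to -0.30, limma adjusted p = 0.0892) and -0.81 in ΔTrbE14 (SE 0.19, interval -1.22 to -0.40, adjusted p = 0.0938). This probe is printed 10 times on each array, and after 0 to 2 outlying spots were left out the spots of 1 array had an SD of 0.11 to 0.37. The signal lies close to the lowest log2 values that were well above background on these arrays, 4.19 to 4.80, and with normexp correction the changes shrank to -0.30 and -0.32. On the deposited normalized values Dll1 passed in both mutants (-0.75, adjusted p = 0.0221, and -0.74, adjusted p = 0.0437). It also passed in ΔTrbE10 with 75th percentile scaling (0.0349) and without ΔTrbE14 replicate 3 (0.0406). The second Dll1 probe was well above background on 0 of 12 arrays.

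Dll4, the Delta ligand of arterial and sprouting endothelium, overlapped between all groups. It read 6.81, 7.44, 7.53 and 7.41 in control, 7.65, 7.19, 7.18 and 5.93 in ΔTrbE10, and 7.50, 7.23, 6.46 and 6.29 in ΔTrbE14. The log2 change was -0.31 (interval -1.12 to 0.51) and -0.43 (interval -1.24 to 0.39), with limma adjusted p of 0.729 and 0.619. Jag1, a Jagged ligand of endothelium and smooth muscle, read 6.99 to 7.69, 6.93 to 7.81 and 6.62 to 7.49 in control, ΔTrbE10 and ΔTrbE14. Its change was 0.13 (interval -0.39 to 0.64) and -0.12 (interval -0.64 to 0.39), with adjusted p of 0.832 and 0.835.

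**Figure D3:**
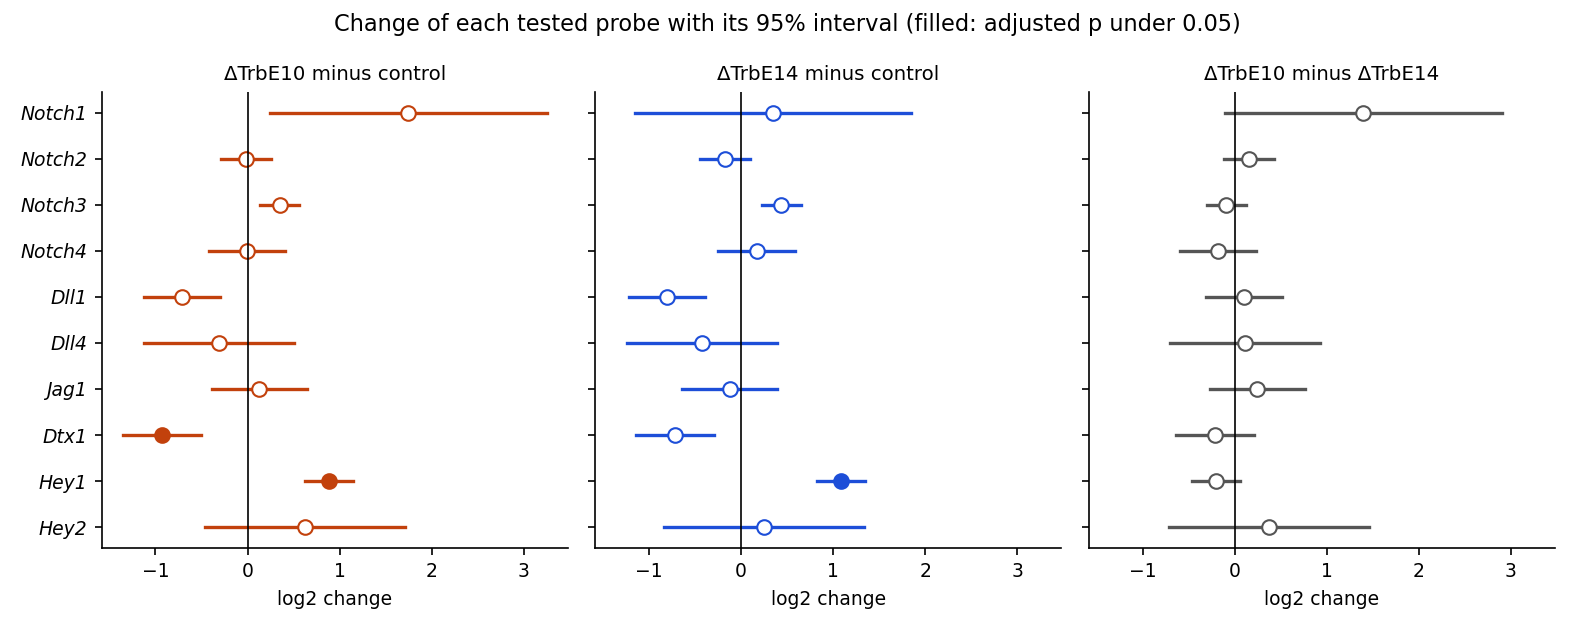
Log2 change of each of the 10 probes (x axis) in the 3 comparisons, with its 95% interval as a line and filled points where the adjusted p was under 0.05. Hey1 is filled in both comparisons with control, Dtx1 in ΔTrbE10 only, and no point is filled between the mutants.

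The direct comparison sets the 2 times of deletion side by side. As the mutants lie on different slides, time of deletion and slide cannot be told apart in it. Between ΔTrbE10 and ΔTrbE14 limma called 0 of the 10 probes, and 0 of all 24593 (0%), with 0 of the 10 and 1417 of all (5.76%) at an unadjusted p under 0.05. SAM, another test for arrays, called 2 of all probes and none of the 10. For Hey1 the difference was -0.20 (interval -0.46 to 0.06), for Dtx1 -0.21 (interval -0.64 to 0.21), for Notch3 -0.09 (interval -0.30 to 0.12) and for Dll1 0.10 (interval -0.31 to 0.51). Notch1 had the widest interval, with a difference of 1.40 (interval -0.10 to 2.90, limma adjusted p = 0.886). The order of levels was control, ΔTrbE10, ΔTrbE14 for Hey1 and Notch3 and the reverse order for Dll1, while for Dtx1 it was ΔTrbE10, ΔTrbE14, control from low to high. For each of these genes the interval of the difference between the mutants included 0 in the fit without pairing.

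The rest of the pathway was followed through a list of 45 further genes, of which 44 were on the array and 40, with 55 probes, were tested; Aph1c was not on the array. None passed in ΔTrbE10, in ΔTrbE14 or between the mutants with limma, and none with SAM. At an unadjusted p under 0.05 there were 6, 5 and 0 of the 55 probes, beside 16.4%, 13.6% and 5.76% of all probes tested. Of the 55, 3 in ΔTrbE10 and 2 in ΔTrbE14 did not overlap with control, beside 10.1% and 9.43% of all. The median change was 0.0045 in ΔTrbE10 and -0.017 in ΔTrbE14, with 28 and 26 of the 55 above control. In the glycosylation and cleavage of receptors, 0 of 8 and 0 of 12 probes reached an unadjusted p under 0.05 in either mutant by limma, and all changes lay between -0.35 and 0.35.

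The pathway genes with the largest changes came from other steps. In ΔTrbE10 these were Neurl1a, Maml3 and Nrarp. Neurl1a, a ubiquitin ligase for Notch ligands, had log2 changes of -0.68 and -0.62 by its 2 probes (limma adjusted p = 0.199 and 0.246), against -0.47 and -0.38 in ΔTrbE14 (0.411 and 0.516). Maml3, a Mastermind co-activator, stood at 0.66 and 0.48 by its 2 tested probes in ΔTrbE10 (adjusted p = 0.187 and 0.318), and at 0.48 and 0.59 in ΔTrbE14 (0.387 and 0.294). Nrarp, an ankyrin protein that Notch induces and that limits it, read 5.19, 5.83, 4.92 and 5.18 in control, 5.89, 6.10, 4.92 and 6.82 in ΔTrbE10, and 5.75, 5.69, 6.63 and 6.77 in ΔTrbE14. Its change was 0.65 (SE 0.39, adjusted p = 0.432) and 0.93 (SE 0.39, adjusted p = 0.330), with overlap in both. Nrarp was well above background on 2 of 4 control arrays, so it entered the test through the mutant groups alone. Its place among the largest changes is therefore no support for a difference.

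Between the mutants the 3 largest differences of the list were 0.35 for the glycosyltransferase Rfng, -0.35 for Rbpj and -0.31 for Maml2, each by 1 of 2 probes. Their limma adjusted p was 0.944, 0.939 and 0.946. The other probes of Rfng and Rbpj differed the opposite way, by -0.065 and 0.18, and that of Maml2 the same way, by -0.11. Further targets of Notch were poorly read: the Hes1 and Hes5 probes were well above background on 0 of 12 arrays. Heyl, the third Hey gene, had log2 changes of -0.34 and -0.32 (adjusted p = 0.540 and 0.581), and neither passed.

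**Figure D4:**
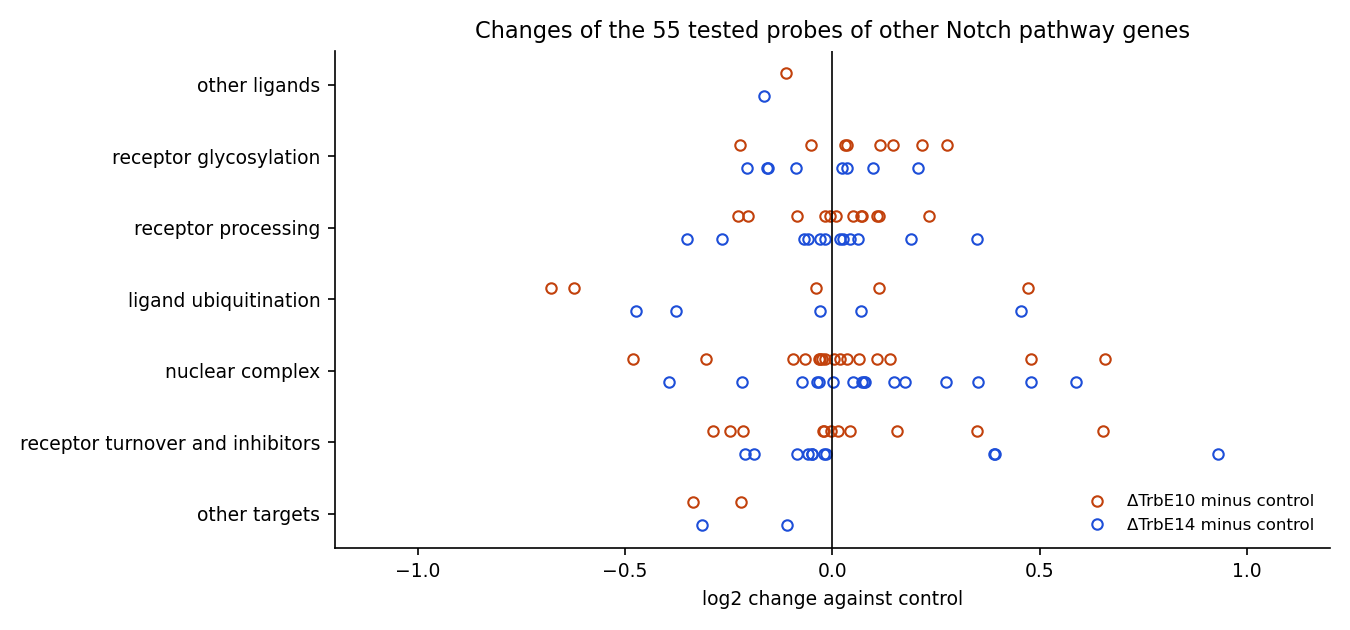
Log2 change against control (x axis) of the 55 tested probes of other Notch pathway genes, grouped by role (y axis), with 1 open circle per probe and mutant. The circles lie between -0.68 and 0.93, and none passed the adjusted p of 0.05.

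Which genes shared the profile of Hey1 and Dtx1 over the 12 arrays was described by the root mean square difference between profiles, each centred on its control mean, among 16071 named probes. This is a ranking over the same arrays and carries no test. The genes nearest to Hey1 were Loxl3, a lysyl oxidase of the extracellular matrix (0.156), and then Etv4, an ETS transcription factor (0.160). Relative to the control mean, Loxl3 stood at 0.71 to 1.19 in ΔTrbE10 and 0.87 to 1.11 in ΔTrbE14, against 0.65 to 1.07 and 1.01 to 1.23 for Hey1. The 3 nearest to Dtx1 were Iglon5, a cell adhesion protein (0.219), Sh2d2a, an adaptor of T cells (0.230), and Fap, a protease of activated fibroblasts (0.244). Fap stood at -1.06 to -0.66 in ΔTrbE10 and -0.94 to -0.60 in ΔTrbE14, without overlap with its control range of -0.12 to 0.16. Among the 10 Notch genes themselves, Dll1 was nearest to Dtx1 (0.344) and Notch3 nearest to Hey1 (0.508).

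**Figure D5:**
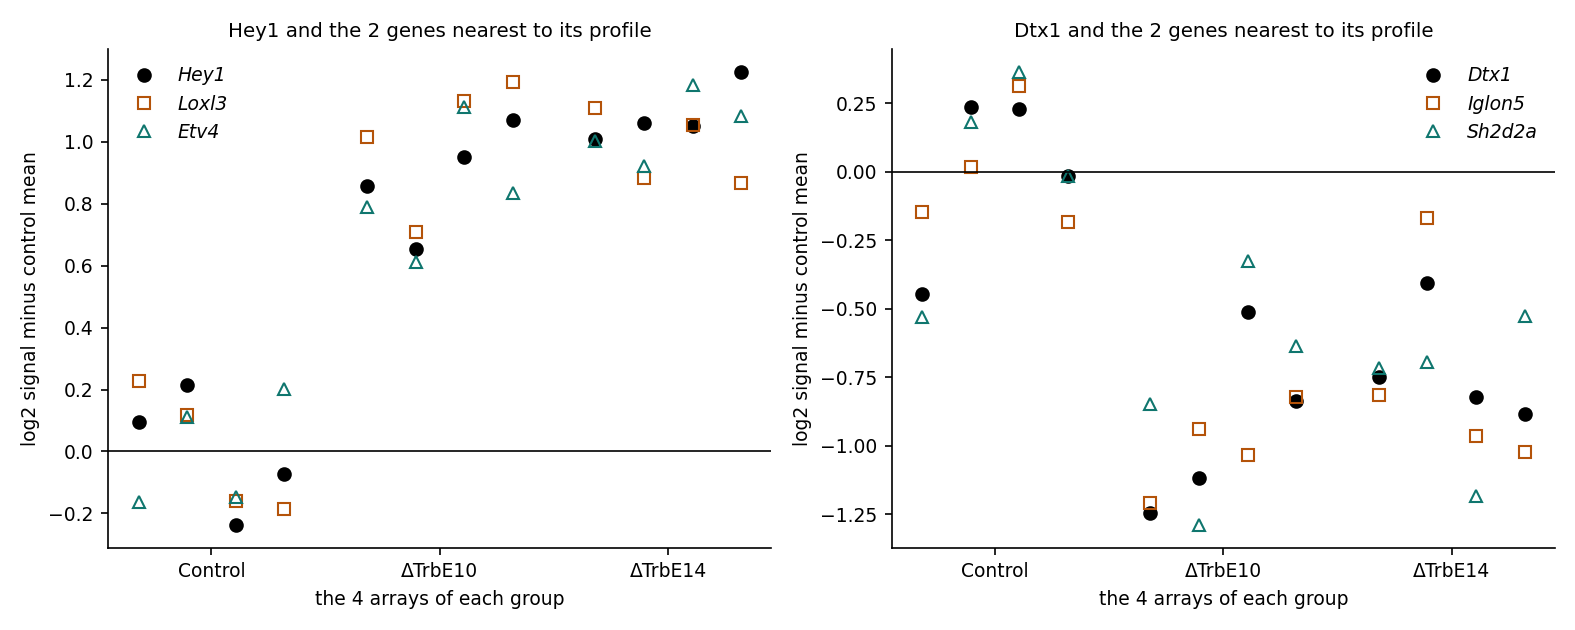
Log2 signal minus the control mean (y axis) on the 4 arrays of each group (x axis) for Hey1 and Dtx1 (filled) and the 2 genes nearest to each (open). The 3 genes of the Hey1 panel lie at 0.61 or above on all 8 mutant arrays, and those of the Dtx1 panel at -0.17 or below on them.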

How the data were processed

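Total RNA of 12 mouse left ventricles was labelled with Cy3 and hybridised to 1-colour Agilent 8x60K arrays, 1 mouse per array and 4 per group. Deposited scanner files, made by the authors with Agilent Feature Extraction 10.5, held each spot's processed intensity (background-subtracted, linear scale) and its flags. The authors also deposited log2 values after quantile normalization, which served as an alternative. Per the methods, quantile normalization and a filter at 75% above background came before their SAM test. Groups were read from the sample labels.

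Here log2 processed intensities were quantile normalized, outlier spots were left out and spots of a probe averaged. Probes well above background on at least 3 of 4 arrays of any group were kept, 24593 of 55681; 7 probes lacked a value on some array. Different probes of a gene were never averaged. limma 3.58.1 (R 4.3.3) fitted 1 mean per group over all 12 arrays, with 9 degrees of freedom from the residuals and 2.19 from the prior, and Benjamini-Hochberg adjustment ran over all probes tested. Levels are log2 signals of a probe, comparable between arrays and not between probes. The number of arrays limits precision. The 75th percentile of the processed intensity was 195 to 250 per array, and no spot was saturated.

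Alternatives were 75th percentile scaling, normexp with an offset of 50, the deposited values, a filter on 9 of 12 arrays, no filter, 2 groups only, a replicate block, Y-linked signal as a covariate, outlier spots kept, SAM at a false discovery rate of 5% and leaving out each array. SAM on the deposited values was added after seeing the data. Fits were tested on simulated data. Pathway genes were named if called in a comparison or among the 3 largest absolute changes in it, and for each called member the 3 nearest profiles were named, of which 1 is not reported here. Members, gene lists and marker lists were chosen with earlier results of these data known. Promoters came from RefSeq (GRCm38.p6), probe positions from the files (mm9); neither was converted.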

Additional observations from a re-analysis of the deposited data

Results flagged for a closer look

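In 2 of 30 groups of 4 arrays tested over the 10 probes, 1 array stood apart from the other 3 by Dixon's criterion, which chance gives in about 1 of 20 groups. Notch3 read 11.11 on ΔTrbE10 replicate 2, below the 11.46 to 11.53 of the other ΔTrbE10 arrays, with a gap of 0.835 of the group's range. Dll4 read 6.81 on control replicate 1, below the 7.41 to 7.53 of the other controls, with a gap of 0.840 of the range. Without ΔTrbE10 replicate 2 the Notch3 change in ΔTrbE10 was 0.44 (limma adjusted p = 0.0135) in place of 0.35, and Dll4 passed in neither mutant under any setting.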

How the results depend on the processing

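The number of the 10 probes past the limma threshold in ΔTrbE10 was 2, and it was 1 (Hey1) with no filter, with only the 2 groups compared and with SAM, 3 (Dll1, Dtx1 and Hey1) with scaling to the 75th percentile, the deposited values and SAM on the deposited values, and 1 to 3 when single arrays were left out. In ΔTrbE14 it was 1, and it was 2 (Hey1 with Notch3, or with Dll1 on the deposited values) with normexp correction, the deposited values, Y-linked signal as a covariate, SAM and SAM on the deposited values (Notch3), and 1 to 2 when single arrays were left out. Between the mutants, and for the other pathway genes in all 3 comparisons, the count was 0 in every setting. With the replicate block the counts stayed at 2, 1 and 0. Deviations of arrays with the same number correlated between -0.24 and 0.079 for control with either mutant, and at 0.37, 0.31, -0.0085 and 0.48 between the mutants, where 6 of 8 arrays correlated best with their own number. As not every pair was over 0.1, the numbers were not used as pairs. With the block the Hey1 difference between the mutants was -0.20 (SE 0.13, limma adjusted p = 0.864), and it was negative for 4 of 4 numbers. The Notch1 difference with the block was 1.40 (SE 0.48, limma unadjusted p = 0.0189, adjusted p = 0.712), which did not pass.

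Of 20 log2 changes of the 10 probes against control, 13 kept their sign in all settings run, with the 3 that passed among them. The other 7, none of which passed, turned sign in some. With Y-linked signal as a covariate, Notch2 in ΔTrbE10 stood at 0.013 and Jag1 in ΔTrbE14 at 0.074. On the deposited values Hey2 stood at -0.096 and -0.035. When single arrays were left out, the changes ranged from -0.17 to 0.99 for Notch1 in ΔTrbE14, -0.11 to 0.069 for Notch2, -0.17 to 0.095 for Notch4 and -0.53 to 0.045 for Dll4 in ΔTrbE10, and -0.23 to 0.071 for Jag1 and -0.060 to 0.63 for Hey2 in ΔTrbE14. Hey2 did not pass the filter on dim probes in 4 settings, the filter on 9 of 12 arrays and the fits without ΔTrbE10 replicate 1, 2 or 3, and has no value there. The cause of these shifts was not tested. Normexp correction, which here added an offset of 50 to each signal, gave smaller changes for Dll1 and Dtx1. The Hey2 probe was well above background on 7 of 12 arrays, which limits what its values can show.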
